A study of Mus musculus with 6 samples.

Results

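The early response to heme was taken as the difference between adherent marrow cells 6 h after heme and adherent marrow cells 6 h after vehicle, 2 of the 6 arrays of the study. Each treatment and time had 1 array: heme at 6, 24 and 72 h, and vehicle at 6, 24 and 72 h. All cells came from mice of the genotype Spic(igfp/igfp), so the vehicle cultures carried the allele as well. The labels do not say which part of Spic the allele alters. Marrow was grown in medium with 10% serum and 20 ng/ml GM-CSF, under which marrow precursors grow into macrophages and dendritic cells. At day 6 the cultures received heme, whose dose the labels type as 80 µm, or its vehicle, a solution of NaCl (0.15 M) and NH4OH (10%). Floating cells were removed before RNA was taken, so only attached cells were read. For each of 19938 named genes 1 probe set was used, and the 11516 genes whose highest level over the 6 arrays reached the median of the table (5.37 on the log2 scale) are described.

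A difference below is heme minus vehicle on the log2 scale, in which 1 is a 2-fold change. No replicate exists at 6 h, so the differences there are descriptions of 2 arrays and carry no error and no test. No label says whether arrays came from separate mice or cultures. A level under 5.37 was taken as a bound only. Where 1 of the levels compared is that dim, the size left after setting it to 5.37 is printed, as "at least".

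Free heme is a product of damaged red cells that macrophages take up and break down. Heme oxygenase 1 opens the heme ring and releases iron, which ferroportin carries out of the cell. Heme binds BACH1, a repressor, and so frees genes that the activator NRF2 drives through antioxidant response elements. Extracellular heme is also known as a stimulus of Toll-like receptor 4, whose signalling reaches NF-kB through one adaptor pathway and interferon genes through another.

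At 6 h, 111 genes were 2-fold or more higher with heme (0.964% of the 11516 genes) and 77 were 2-fold or more lower (0.669%). With levels below the median of the table set to it, 97 and 66 did so. The increases were the larger: 23 genes were 4-fold or more higher, also with dim levels set to 5.37, and 0 were 4-fold or more lower by that bound. The gene with the lowest measured difference, the brain-expressed X-linked Bex1, has a heme level under 5.37. The 15 highest genes included chemokines (Cxcl3, Cxcl2, Cxcl10, Ccl5), the cytokines Il1b and Tnf, genes of heme breakdown and iron export (Hmox1, Slc40a1), Acod1 and Spic. Genes of DNA replication and mitosis lay below the median of all genes, most of them by less than 2-fold.

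**Figure D1:**
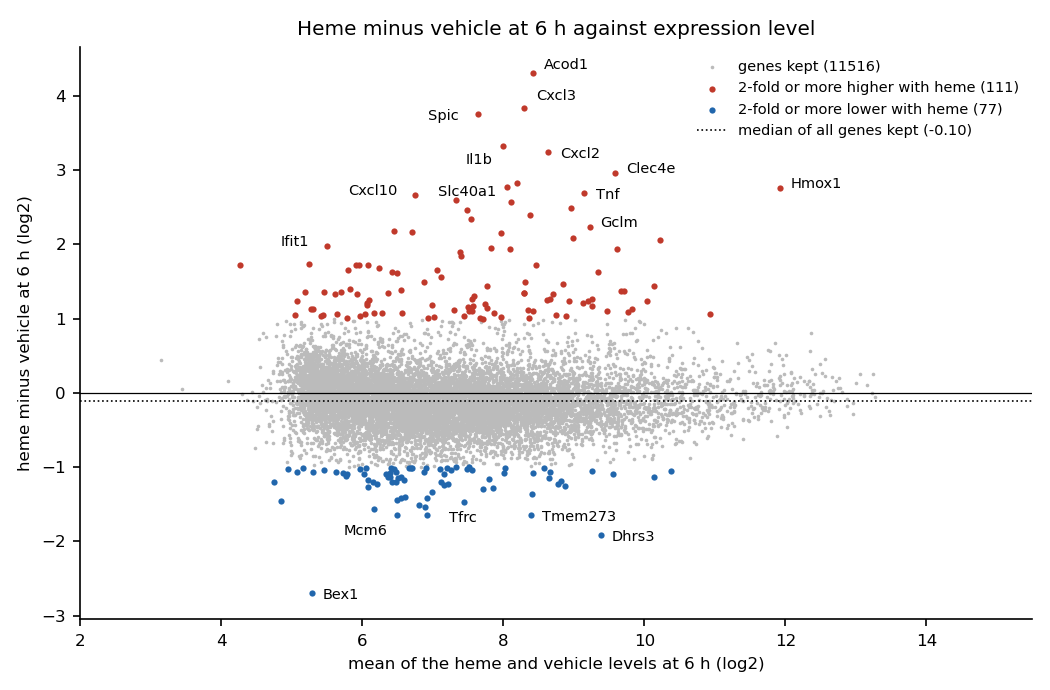
Each point is 1 of 11516 genes, with the mean of the heme and vehicle levels at 6 h on the horizontal axis and heme minus vehicle on the vertical axis, both log2. The 111 genes 2-fold or more higher with heme reach 4.31 (Acod1), and the 77 genes 2-fold or more lower reach a measured -2.70 (Bex1, heme level under 5.37); the dotted line marks the median of all genes (-0.10).

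The heme array at 6 h had the highest median of the 6 arrays (5.45, against 5.34 on the vehicle array at 6 h and 5.34 to 5.39 on the others) and the narrowest spread of values (SD 2.19, against 2.21 to 2.25 on the other 5 arrays). The median difference over the genes kept was nonetheless -0.10, and 36.5% of genes had a difference above 0. Across 5 equal groups of genes ordered by level the median difference was 0.04 in the lowest and between -0.16 and -0.10 in the other 4. Centring each array on its median moves every 6 h difference down by 0.11, which gives 86 genes higher and 159 lower, or 35.1% higher in place of 59.0%. With an offset of 16 on the linear scale, which shrinks dim genes, 85 were higher and 37 lower (69.7% higher).

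Macrophage markers were present on both arrays: all 10 passed the level filter, with levels of 8.34 to 13.2 at 6 h and a median difference of -0.02. Of 12 neutrophil markers 10 passed, with a median difference of 0.22. None of the T and NK cell markers with a probe set (7) or of the erythroid markers with a probe set (5) reached the filter on any array. Markers of some other cell types were present and differed. Of eosinophil markers Prg2, a granule protein, had 8.07 with heme and 9.22 with vehicle, and the sums of the linear values of the 3 markers kept (Prg2, Epx, Siglecf) were 433.1 with heme and 846.6 with vehicle. Of 9 stromal markers kept 8 were below 0 (over all genes 36.5% were above 0), 3 of them by 1.5-fold or more, with sums of 574.9 and 799.9. Both endothelial markers kept (Kdr, Vwf) were below 0, with sums of 288.4 and 377.0. The sums of the 4 megakaryocyte markers kept were 1875.3 and 1142.1. Of these, 2 were above 0, Pf4 and Ppbp, which are also CXC chemokines. The other 2, Vwf and Itga2b, were below 0, with Itga2b below the filter on both 6 h arrays. The sums of the 6 dendritic cell markers kept were 12787.3 with heme and 10459.7 with vehicle. What part these cells have in other differences was not tested. In such bulk samples fewer cells of a type cannot be told apart from less RNA per cell.

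The highest difference of all belonged to Acod1, the enzyme that makes itaconate in activated macrophages. Its level was 10.58 with heme and 6.27 with vehicle at 6 h, a 19.8-fold difference. The transcription factor gene Spic, required for red pulp macrophages of the spleen, had 9.53 and 5.76, or 13.6-fold. No source read here says whether its probe set lies in a part that the allele changes.

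**Figure D2:**
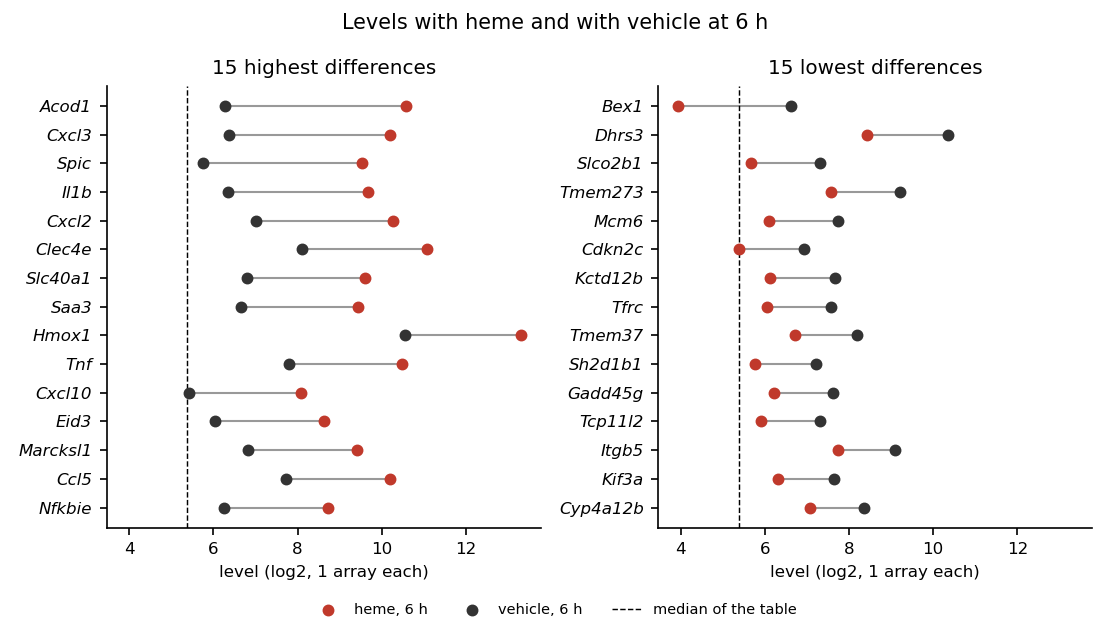
Levels (log2) on the heme and the vehicle array at 6 h for the 15 genes with the highest and the 15 with the lowest difference, predicted genes left out; the dashed line is the median of the table. Every gene on the left has its heme point above 8, and Bex1 is the only gene on the right whose heme point lies below the dashed line.

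Ligands were among the genes with the highest differences. Of 13 CXC chemokines, which draw neutrophils or activated T cells, 10 passed the level filter and 6 were 2-fold or more higher, with 0 lower and a median difference of 1.43 against -0.10 over all genes. Cxcl3, a neutrophil attractant, had 10.21 with heme and 6.37 with vehicle (14.3-fold). Its neighbour Cxcl2 had 10.26 and 7.01 (9.52-fold), and Cxcl1 had 8.33 and 6.48 (3.60-fold). These neutrophil attractants remained 2-fold or more higher at 24 and 72 h. The interferon-inducible Cxcl10 had 8.08 and 5.41 (6.34-fold), and its relative Cxcl9 had 6.11 and 4.37, at least 1.66-fold. Another chemokine of neutrophils, Cxcl5, lay below the filter on both 6 h arrays and has no early value. A gene that passes the filter only on heme arrays has to differ, so these list counts are descriptions.

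Of 10 CC chemokines kept, 2 were 2-fold or more higher. Ccl5, which draws T cells, had 10.20 with heme and 7.71 with vehicle (5.61-fold), and Ccl22, a product of dendritic cells and macrophages, had 10.58 and 8.64 (3.85-fold). The monocyte attractant Ccl7 had 6.21 and 6.83, and Ccl4 had 10.57 and 9.81. The other 8 of the list were within 2-fold.

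In the interleukin 1 family 3 of 12 members kept were 2-fold or more higher, all of them agonists. Il1b had 9.67 with heme and 6.33 with vehicle (10.1-fold), Il1a had 10.03 and 7.94 (4.25-fold), and Il1f9, also called IL-36 gamma, had 8.23 and 6.93 (2.46-fold). The antagonist Il1rn had 10.14 and 9.34 (1.74-fold). Among other cytokines Tnf had 10.49 and 7.79 (6.47-fold), and Inhba, the activin A subunit, had 10.86 and 9.42 (2.72-fold). Il6 lay below the filter on both 6 h arrays (5.13 and 3.40), so its measured difference of 1.73 has no size. Csf1, the macrophage growth factor, had 8.05 and 7.68.

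The inhibitors that NF-kB induces against itself followed the same direction. All 17 members kept of the list of NF-kB subunits and feedback genes had a difference above 0 (also after centring), 8 of them 2-fold or more, with a median of 0.93. Nfkbie, an inhibitor that holds NF-kB in the cytoplasm, had 8.72 with heme and 6.26 with vehicle (5.52-fold). Tnip3, a partner of the ubiquitin editor A20, had 9.04 and 6.89 (4.44-fold), and Tnfaip3, which encodes A20 itself, had 8.34 and 6.44 (3.71-fold). The adaptor Traf1 had 7.08 and 5.39 (3.22-fold). Of the subunits, Relb had 6.68 and 5.47 (2.31-fold).

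Effectors of inflammation included 8 of 14 members kept at 2-fold or more, 0 lower, with a median of 1.15. Besides Acod1, the acute-phase protein gene Saa3 had 9.44 with heme and 6.66 with vehicle (6.87-fold), and Marcksl1, a regulator of the actin cytoskeleton, had 9.40 and 6.82 (5.97-fold). F3, which encodes tissue factor, the starter of coagulation, had 6.37 and 5.01, at least 2.00-fold. The lipocalin gene Lcn2, an iron-siderophore binder that macrophages raise in infection, had 9.20 on both arrays.

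Of 13 C-type lectin receptors kept, 2 were 2-fold or more higher: Clec4e, the receptor Mincle, had 11.07 with heme and 8.10 with vehicle (7.83-fold), and its partner Clec4d had 9.85 and 8.68 (2.25-fold). Mrc1, the mannose receptor, had 9.66 and 10.55. Of 19 Toll-like receptors and adaptors kept, 0 were 2-fold or more higher and Tlr8 was lower (6.83 and 7.83, 2.01-fold), while the co-receptor Cd14 had 10.46 and 9.53 and Tlr2 had 10.21 and 9.40. The fatty acid receptor Gpr84 had 7.78 and 5.61 (4.51-fold), and Tgfbr2, the receptor of TGF-beta, had 8.23 and 9.41 (2.28-fold lower). Of 15 genes of dendritic cell maturation and identity kept, 2 were 2-fold or more higher and 0 lower, with a median of 0.47. Their differences ran from -0.79 to 1.21, with 12 above 0 and 3 below. The factor Batf3 had 7.54 and 6.51 (2.04-fold, a difference of 0.91 after centring) and the migration receptor Ccr7 had 7.35 and 6.49 (1.82-fold).

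Promoters were searched for the letters GGANTTTCC, a short form of the kappa B site that NF-kB binds, on both strands over 300 bases (250 before the start to 50 after it, from RefSeq, GRCm38.p6). Of the 111 genes 2-fold or more higher with heme, 81 had a single promoter in that table and 12 of these held a match (14.8%). Without Il6, whose 6 h levels both lie below the filter, 11 of 80 did (13.8%). The share was 1 of 45 (2.22%) for the genes 2-fold or more lower, 107 of 7490 (1.43%) for all genes kept, and 1.25% for all 22862 single-promoter genes. Among the 12 were Acod1, Cxcl3, Cxcl2, Cxcl10, Cxcl1, Gbp5 and F3. Windows of 60 bases upstream of the start are shown for the 5 named genes with the largest differences, to let the sites be compared; capitals mark the match, which lies on the opposite strand in Acod1 and Cxcl10.
Acod1, chr14:103046912-103046971, + strand: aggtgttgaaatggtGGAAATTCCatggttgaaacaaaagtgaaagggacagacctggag
Cxcl3, chr5:90786014-90786073, + strand: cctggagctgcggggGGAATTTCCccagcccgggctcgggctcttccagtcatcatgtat
Cxcl2, chr5:90903788-90903847, + strand: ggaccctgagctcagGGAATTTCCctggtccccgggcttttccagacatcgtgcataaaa
Cxcl10, chr5:92349003-92349062, - strand: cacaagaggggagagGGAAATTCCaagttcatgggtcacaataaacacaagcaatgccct
Cxcl1, chr5:90891160-90891219, + strand: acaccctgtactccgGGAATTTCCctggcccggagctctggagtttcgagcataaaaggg
The first base of the match lay between positions -158 and -70 from the start in these 5 genes. Cxcl1, Cxcl2 and Cxcl3 are related genes in 1 cluster, so their matches are not independent of each other. Tnf, Il1b and Nfkbie had no match in this window. A match is a string of letters and does not show that a factor binds there.

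Antiviral genes of the interferon pathway formed a second, smaller group of increases. Of 23 interferon-stimulated antiviral effectors, 20 passed the level filter; 19 had a difference above 0 and 5 were 2-fold or more higher, with a median of 0.68. Ifit1, which binds viral RNA caps, had 6.48 with heme and 4.50 with vehicle, at least 2.16-fold. Oasl2, of the oligoadenylate synthetase family, had 7.30 and 5.68 (3.06-fold), Ifit3 had 7.04 and 5.69 (2.55-fold), and Rsad2, which encodes viperin, had 6.59 and 5.26, at least 2.32-fold. The fifth, Ifit2, had 5.96 and 4.91, less than 2-fold once the vehicle level is set to 5.37 (a difference of at least 0.58), and is named because the count is small. Of 4 interferon-induced GTPases kept 1 was 2-fold or more higher, Gbp5 (7.24 and 5.61, 3.09-fold), with a list median of 0.19. Ifit1, Ifit2 and Rsad2 reached the filter on the heme array at 6 h alone, so that they were higher with heme was set by the filter. Levels of the antiviral genes were low on the vehicle array. With the level filter at the 75th percentile only 1 of them, in place of 5, was kept at 2-fold or more.

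Of 9 interferon ligands and receptors 6 passed the filter and 0 were 2-fold different, with a median of 0.00, and the interferon beta gene Ifnb1 did not reach the filter on any array. Of 14 interferon signalling genes and IRF factors kept, 1 was 2-fold or more higher, Irf7 (6.29 with heme and 5.28 with vehicle, at least 1.88-fold). Irf8, a factor of monocyte and dendritic cell development, had 7.48 and 8.27.

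The interferon-stimulated response element was searched as GAAANNGAA in the same promoters. It was held by 9 of the 13 antiviral genes with a single promoter (69.2%), against 7.25% of all genes kept and 8.62% of the table. The list was chosen as interferon targets, so this share follows in part from the choice. Of the 81 genes higher by 2-fold or more 13 held it, and of the 45 lower genes 7 did (15.6%). Windows of antiviral genes and of Cxcl10 show how the matches are placed, in capitals.
Cxcl10, chr5:92349058-92349117, - strand: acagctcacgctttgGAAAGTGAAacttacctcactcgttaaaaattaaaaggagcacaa
Ifit1, chr19:34640765-34640824, + strand: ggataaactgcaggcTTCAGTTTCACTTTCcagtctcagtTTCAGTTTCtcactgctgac
Ifit3, chr19:34583359-34583418, + strand: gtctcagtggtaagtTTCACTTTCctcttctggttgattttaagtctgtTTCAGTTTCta
Rsad2, chr12:26456527-26456586, - strand: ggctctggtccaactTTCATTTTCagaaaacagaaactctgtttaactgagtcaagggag
Ifit1 held 3 matches in this window, of which a pair overlaps, and Ifit3 held 2. All matches in the Ifit1, Ifit3 and Rsad2 windows are on the opposite strand, and that of Cxcl10 is on the strand shown. Cxcl10 thus held both a kappa B match and an interferon element in its promoter; Oasl2 held neither the interferon element nor a kappa B match there.

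**Figure D3:**
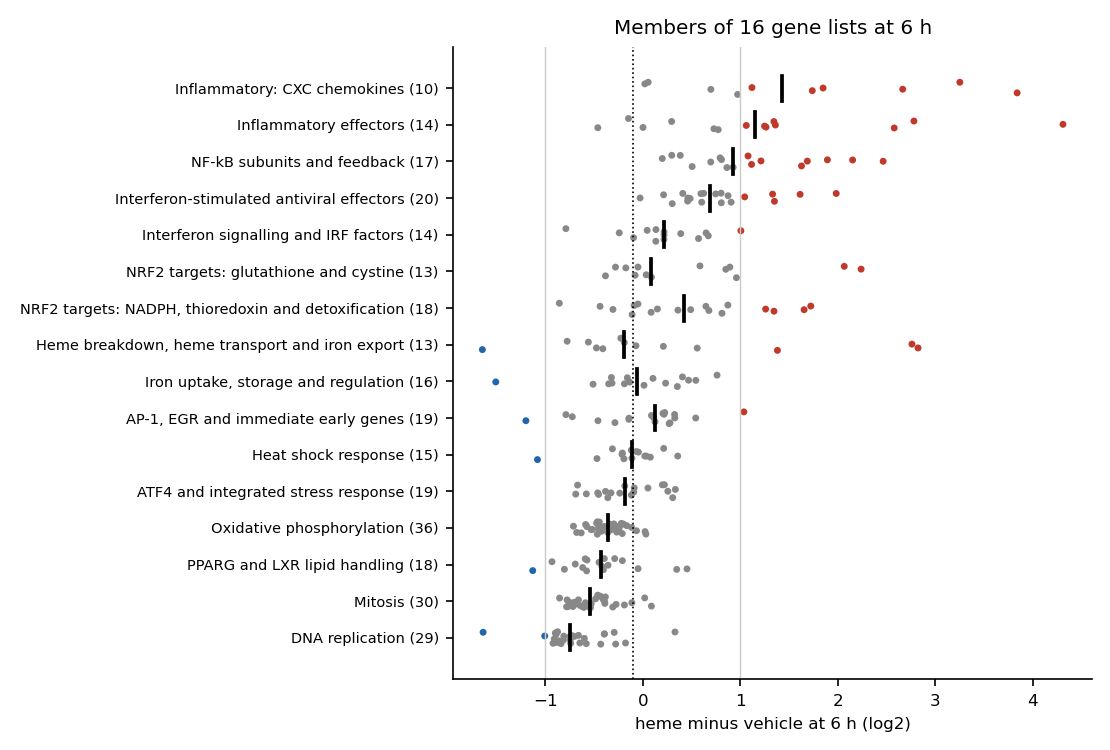
Heme minus vehicle at 6 h (log2) for the members kept of 16 gene lists, 1 point per gene, with the number of members in brackets; a thick bar is the list median, the dotted line the median of all genes (-0.10) and grey lines mark 2-fold. CXC chemokines, inflammatory effectors and NF-kB feedback genes have medians of 1.43, 1.15 and 0.93, while mitosis and DNA replication have -0.54 and -0.75.

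Heme breakdown and export of its products responded at single genes. Hmox1, heme oxygenase 1, had 13.30 with heme and 10.54 with vehicle (6.77-fold). Slc40a1, the iron exporter ferroportin, had 9.61 and 6.79 (7.07-fold), and Slc48a1, which moves heme out of the lysosome, had 10.41 and 9.03 (2.60-fold). In the opposite direction the organic anion transporter Slco2b1 had 5.66 and 7.31 (3.13-fold lower). These 4 are all the members of 13 kept at 2-fold or more, and the list median was -0.19.

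Iron uptake and storage genes held 1 such difference among 16 kept: Tfrc, the transferrin receptor, had 6.05 with heme and 7.56 with vehicle (2.85-fold lower). Slc25a37, mitoferrin 1, had 6.91 and 6.15 (1.69-fold). Of 7 genes of heme biosynthesis kept 0 were 2-fold different, with a median of -0.28; the rate-limiting enzyme Alas1 had 8.64 and 8.92, and Urod, a later enzyme, had 6.85 and 7.73.

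Targets of NRF2 were higher in part. Of 13 genes of glutathione and cystine metabolism kept, 2 were 2-fold or more higher and 0 lower, with a median of 0.09. Gclm, a subunit of the enzyme that starts glutathione synthesis, had 10.34 with heme and 8.11 with vehicle (4.72-fold), and Slc7a11, the cystine importer, had 11.25 and 9.19 (4.19-fold). The catalytic partner Gclc had 7.86 and 6.91 (1.94-fold). Of 18 genes for NADPH, thioredoxin and detoxification kept, 4 were 2-fold or more higher and 0 lower, with a median of 0.42: the exporter Abcc1 (9.32 and 7.60, 3.30-fold), malic enzyme Me1 (6.62 and 4.97, at least 2.37-fold), thioredoxin reductase Txnrd1 (8.96 and 7.62, 2.54-fold) and sulfiredoxin Srxn1 (9.29 and 8.03, 2.39-fold). Me1 reached the filter on the heme arrays alone, so that it was higher with heme was set by the filter. The regulators differed less: Nfe2l2, which encodes NRF2, had 11.15 and 10.69, and Bach1 had 7.74 and 7.60.

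An antioxidant response element, searched as TGACNNNGC, was held by 17 of the 81 genes 2-fold or more higher (21.0%), 7 of the 45 lower (15.6%) and 14.7% of all genes kept. The promoter of Gclm is shown as the NRF2 target with the largest difference that held a match, here on the opposite strand.
Gclm, chr3:122245408-122245467, + strand: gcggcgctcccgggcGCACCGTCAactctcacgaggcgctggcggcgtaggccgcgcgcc
Slc7a11 had no match in its window.

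Of 16 genes known from red pulp macrophages 13 were kept, and 4 were 2-fold or more higher: Spic, Hmox1, Slc40a1 and Treml4. Treml4, a receptor of splenic macrophages, had 7.54 with heme and 5.36 with vehicle, at least 4.49-fold. The median of the list was -0.07, and Mertk, the receptor for dying cells, had 8.34 and 8.87. The early difference was thus held by these 4 genes, and the other 9 were within 2-fold.

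Decreases at 6 h were smaller and more spread over genes. Bex1 had 3.94 with heme and 6.63 with vehicle, at least 2.39-fold lower. Dhrs3, a retinaldehyde reductase, had 8.43 and 10.35 (3.76-fold lower). Itgb5, an integrin subunit, had 7.73 and 9.10 (2.58-fold lower), and the stress-inducible Gadd45g had 6.21 and 7.62 (2.66-fold lower). Sh2d1b1, an adaptor of immune receptors, had 5.76 and 7.21 (2.72-fold lower). Tmem273, Tmem37, Kctd12b and Tcp11l2 were 2.64-fold to 3.12-fold lower. None of the 15 lowest genes was 2-fold or more higher at a later time.

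Replication genes as a group lay low. Of 29 members kept, 28 had a difference below 0, 21 by 1.5-fold or more and 2 by 2-fold or more, with a median of -0.75. Over all genes 6.89% were lower by 1.5-fold or more and 36.5% had a difference above 0. Mcm6, a subunit of the replicative helicase, had 6.09 with heme and 7.73 with vehicle (3.12-fold lower), and Tyms, thymidylate synthase, had 6.69 and 7.70 (2.01-fold lower). Mcm4, of the same helicase, had 6.67 and 7.58, and Cdc45, which joins it at the fork, had 5.91 and 6.84. The count at 2-fold or more was 1 after a second quantile normalization, after cyclic loess and with the offset, and 7 after centring. Mcm6 was lower by 2-fold or more under each of these.

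Mitosis genes had a difference below 0 in 28 of 30 members kept, by 1.5-fold or more in 14 and by 2-fold in 0, with a median of -0.54. Over all genes 36.5% had a difference above 0 and 6.89% were lower by 1.5-fold or more. The checkpoint kinase Bub1 had 6.34 with heme and 7.19 with vehicle, and the kinesin Kif11 had 6.53 and 7.32. Among regulators of entry into S phase, 17 kept, 0 were 2-fold different and the median was -0.26; cyclin D1 (Ccnd1) had 7.01 and 7.72. Cdkn2c, an inhibitor of the kinases that cyclin D activates, was lower as well (5.38 and 6.94, 2.95-fold), and Cdkn2b, of the same family, had 7.01 and 6.23. All 29 replication and all 30 mitosis genes kept had their highest vehicle level at 6 h: Mcm6 in vehicle was 7.73, 5.86 and 5.42 at 6, 24 and 72 h, and Kif11 was 7.32, 6.03 and 5.22. This was not particular to them. It held for all 17 regulators of S phase entry, 25 of 26 cholesterol and fatty acid synthesis genes and 25 of 31 proteasome subunits. It held for 18 of 36 subunits of oxidative phosphorylation and 3 of 27 lysosome genes. The share over all genes kept was not counted.

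The E2F site, searched as TTTNNCGC, was held by 8 of the 20 replication genes with a single promoter (40.0%), against 9.04% of all genes kept and 5.30% of the table. Among the 45 genes 2-fold or more lower it was held by 9 (20.0%), and among the 81 higher by 5 (6.17%). Mcm6 and Mcm5 each show a pair of overlapping matches on the 2 strands, in capitals. Mcm5 (difference -0.74) and Pola1 (-0.73) lie outside the naming rule and were picked with their values in view, for the site in their promoters.
Mcm6, chr1:128359771-128359830, - strand: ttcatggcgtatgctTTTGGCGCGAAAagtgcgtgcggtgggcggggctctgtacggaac
Mcm5, chr8:75109341-75109400, + strand: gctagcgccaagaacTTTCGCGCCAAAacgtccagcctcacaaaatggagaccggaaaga
Pola1, chrX:93632249-93632308, - strand: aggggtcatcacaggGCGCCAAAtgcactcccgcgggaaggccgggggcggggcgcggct
The list was chosen as genes of S phase, many of which are known E2F targets, so the share follows in part from the choice.

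Over all genes kept 36.5% had a difference above 0 and the median was -0.10, so most genes lay below 0. Of 36 subunits of oxidative phosphorylation kept, 34 had a difference below 0 and 0 reached 2-fold, with a median of -0.36 (-0.47 after centring). Ndufa9, of complex I, had 8.18 with heme and 8.89 with vehicle. Of 18 genes of lipid handling under PPARG and LXR kept, 16 lay below 0 and 1 was 2-fold lower, Plin2, a coat protein of lipid droplets (9.57 and 10.70, 2.19-fold). Pparg had 8.22 and 9.03, and the fatty acid binding protein Fabp4 had 9.05 and 9.98. Cholesterol and fatty acid synthesis had a median of -0.12 with 0 of 26 at 2-fold, near the median of all genes. Glycolysis and hypoxia genes had a median of 0.03 with 0 of 24 at 2-fold or more, and the glucose transporter Slc2a1 had 10.41 and 9.45 (1.94-fold).

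Several stress pathways had no large early difference. Among 15 heat shock genes kept the median was -0.11 and 0 were 2-fold higher, while Hspa1a, the inducible HSP70, was lower (5.85 with heme and 6.93 with vehicle, 2.12-fold). Of 20 endoplasmic reticulum chaperones, 19 genes of the ATF4 response, 15 p53 targets, 10 metallothionein and zinc genes and 31 proteasome subunits kept, 0 were 2-fold different in either direction. The metallothionein Mt2 had 11.15 and 11.11. Of 19 immediate early genes kept, 1 was 2-fold or more higher, the nuclear receptor Nr4a3 (6.49 and 5.45, 2.05-fold), and 1 lower, Klf4 (6.52 and 7.72, 2.30-fold). Fos had 7.62 and 8.41 and Myc had 9.03 and 9.31 at this time. Of 13 phosphatases and SOCS genes kept, Socs3 was the 1 at 2-fold (8.18 and 7.17), and its second probe set had 8.02 and 7.11.

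The later arrays show how much of the early pattern lasted. At 24 h 164 genes were 2-fold or more higher with heme (1.42%) and 56 lower (0.486%), and at 72 h 144 were higher (1.25%) and 70 lower (0.608%). Of the 111 genes higher at 6 h, 59 were also 2-fold or more higher at 24 h, 40 at 72 h and 38 at both, while 50 were so at neither. These 59 are 36.0% of the genes higher at 24 h, and the 40 are 27.8% of those higher at 72 h. Of the 77 genes lower at 6 h, 13 were also 2-fold or more lower at 24 h, 7 at 72 h and 62 at neither. Median differences of the 111 genes were 1.34, 1.14 and 0.65 at 6, 24 and 72 h, and those of the 77 genes were -1.13, -0.50 and -0.28; since the genes were picked at 6 h, a smaller later difference is partly set by that choice. The 5-lipoxygenase gene Alox5, named because it was the 1 gene at 2-fold in the opposite direction later, differed by -1.03, 0.71 and 1.39.

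**Figure D4:**
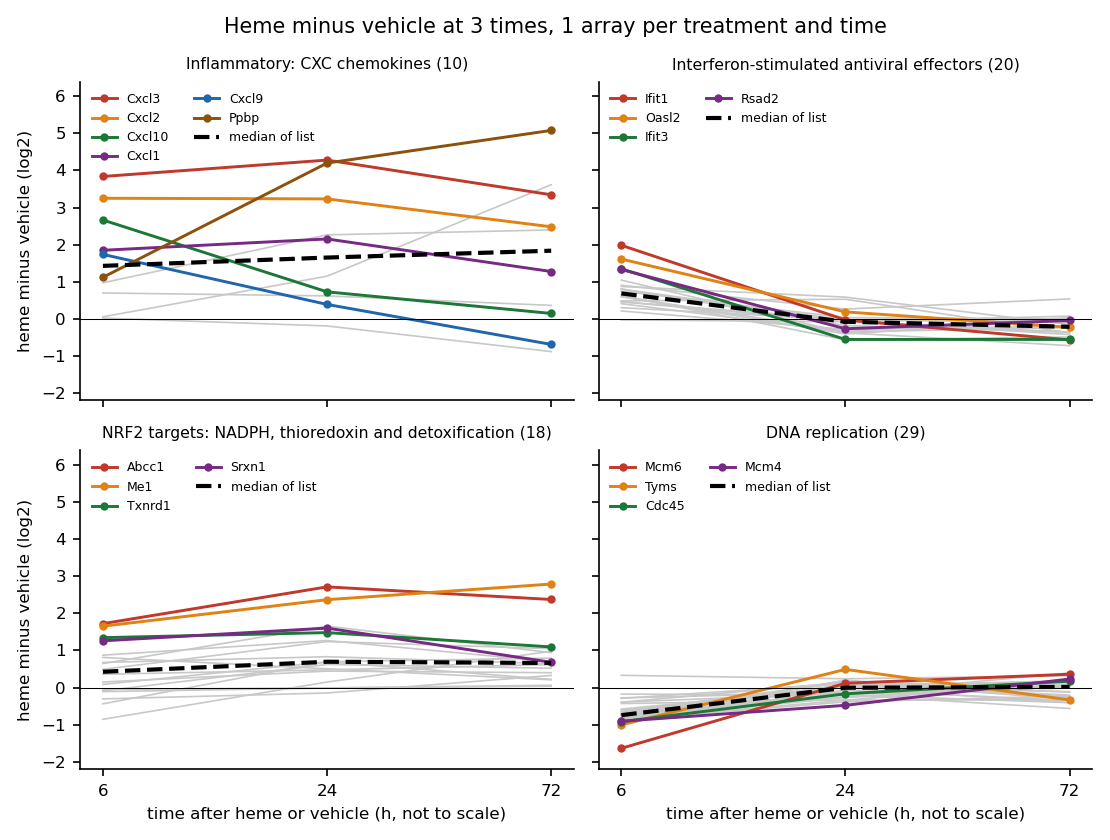
Heme minus vehicle (log2) at 6, 24 and 72 h for members of 4 gene lists; grey lines are members, coloured lines named genes and the dashed line the list median. The antiviral list has medians of 0.68, -0.08 and -0.21 and the replication list -0.75, -0.01 and 0.02, while the NADPH and thioredoxin list has 0.42, 0.69 and 0.66.

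Whether the 6 h difference was larger or smaller than the mean of the 24 and 72 h differences was tested in 1 limma fit over all 6 arrays (two-sided, Benjamini-Hochberg over 11516 genes). The fit has 1 residual degree of freedom, the change between 24 and 72 h. Most of its variance comes from a prior of 46.9 degrees of freedom shared by all genes, so an adjusted p reflects little of a gene's own spread. The later times are not replicates of each other. The 6 h difference was larger in 56 genes (0.486%) and smaller in 61 (0.530%) at an adjusted p of 0.05. Larger and smaller are signed. A gene lower with heme at 6 h alone has the smaller difference, and one lower with heme only later has the larger. After a second quantile normalization 19 genes in all passed, after cyclic loess 15 did, after centring 287, and with levels below the median of the table set to it 0 did (805 at an unadjusted p under 0.05).

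Among 10 CXC chemokines kept, 2 passed with a larger 6 h difference (Cxcl10, Cxcl9) and 3 with a smaller one (Ppbp, Cxcl5, Pf4). Cxcl10 had 8.08, 5.65 and 5.02 on the heme arrays at 6, 24 and 72 h, and 5.41, 4.92 and 4.87 on the vehicle arrays. Its 6 h difference exceeded the later mean by 2.23 ± 0.32 (SE; limma, adjusted p = 9.49e-06). The heme array at 6 h stands alone above the other 5. Ifit1 had 6.48, 4.68 and 3.88 with heme and 4.50, 4.71 and 4.45 with vehicle. It was kept through its heme level at 6 h alone, so a larger 6 h difference was set by the filter and its call is no support. Ifit3 had 7.04, 5.69 and 5.73 with heme and 5.69, 6.24 and 6.28 with vehicle (limma, adjusted p = 1.08e-04), so it was lower with heme later. Of the 20 antiviral genes kept 5 passed in this direction and 0 in the other, but 3 of the 5 (Ifit1, Ifit2, Rsad2) reached the filter on the heme array at 6 h alone, as did Cxcl9. The other 2 were Ifit3 and Oasl2, which differed by 1.61, 0.19 and -0.23 (limma, adjusted p = 0.00121). Of the 4 GTPases Gbp5 passed (limma, adjusted p = 2.54e-04).

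Some cytokine and effector genes passed and others did not. Tnf had 10.49, 8.34 and 8.10 with heme and 7.79, 7.25 and 7.47 with vehicle, with an early excess of 1.83 (limma, adjusted p = 2.54e-04). Il1a had 10.03, 9.14 and 8.89 with heme and 7.94, 8.64 and 9.37 with vehicle, so that vehicle was the higher at 72 h (limma, adjusted p = 8.98e-05). Ccl4 differed by 0.75, -0.72 and -1.12 (limma, adjusted p = 9.00e-04), and Acod1 by 4.31, 3.74 and 1.36 (limma, adjusted p = 0.0221). Il1b, with 3.33, 2.77 and 1.28, did not pass (limma, adjusted p = 0.0623). Neither did Cxcl3, Cxcl2 and Cxcl1, whose excess of the 6 h difference was 0.03, 0.39 and 0.13. Il1a, Ccl4 and Acod1 lost the call after a second quantile normalization (limma, adjusted p = 0.0835, 0.0835 and 0.467) and after cyclic loess. A pass in 1 gene and not in another does not show that their time courses differ.

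In other genes with a large early excess the mean later difference was negative, so the excess is not a larger early effect of heme. Klra17, a Ly49-type lectin receptor, had 6.62, 6.90 and 6.90 with heme and 7.08, 9.25 and 9.36 with vehicle (limma, adjusted p = 8.98e-05), so its vehicle levels were the ones that differed between times. Retnla, a secreted product of alternatively activated macrophages, differed by 0.38, -1.56 and -1.52 (limma, adjusted p = 1.07e-04), with both 72 h levels of Retnla below the filter. Slamf7, a receptor that aids phagocytosis, differed by 0.90, 0.03 and -2.13 (limma, adjusted p = 0.00442). Klra17 and Ly6i, below, belong to families of similar genes, and cross-reading of their probes was not tested.

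**Figure D5:**
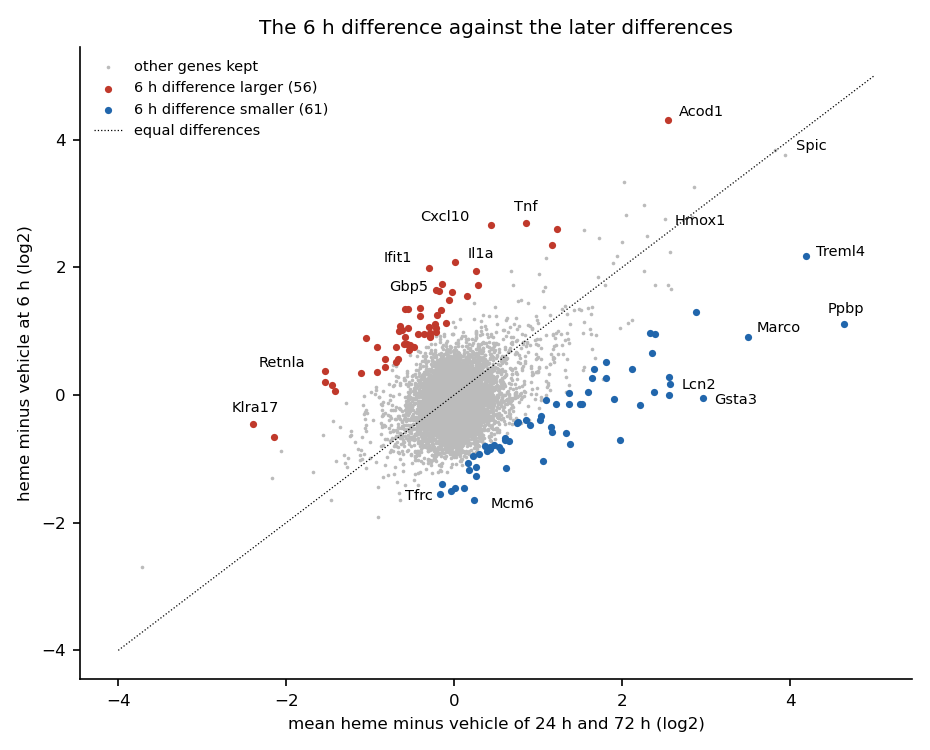
The 6 h difference against the mean of the 24 and 72 h differences for 11516 genes (heme minus vehicle, log2), with genes past the limma test in colour. Cxcl10, Ifit1 and Tnf lie above the line of equal differences among the 56 red genes, Treml4, Ppbp and Gsta3 below it among the 61 blue genes, and Spic and Hmox1 lie near it.

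Other genes reached their difference after 6 h. Treml4 had 7.54, 9.43 and 9.78 with heme and 5.36, 5.13 and 5.71 with vehicle, and the excess of its 6 h difference over the later mean was -2.00 ± 0.31 (SE; limma, adjusted p = 5.78e-05). Spic by contrast differed by 3.76, 4.40 and 3.48, an excess of -0.18 (limma, adjusted p = 0.943), and Hmox1 by 2.76, 2.74 and 2.27, an excess of 0.26 (limma, adjusted p = 0.888). For these 2 genes the test did not separate the early from the later difference, which does not show that they are equal. The platelet basic protein gene Ppbp, a CXC chemokine, had 7.87, 9.17 and 11.37 with heme and 6.75, 4.97 and 6.29 with vehicle (limma, adjusted p = 3.06e-10), and its relative Pf4 by 0.97, 2.26 and 2.40 (limma, adjusted p = 0.0108).

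Of the NRF2 targets 1 of 13 glutathione genes and 2 of 18 NADPH and detoxification genes passed with a smaller 6 h difference, and 0 with a larger one. Saa3 did not pass, with an excess of -0.05 (limma, adjusted p = 0.989). Gsta3, a glutathione transferase, lay below the filter on both 6 h arrays and had 7.14 and 8.11 with heme at 24 and 72 h, against 4.54 and 4.78 with vehicle (limma, adjusted p = 1.31e-08). Gsta3 was kept through its heme levels at 24 and 72 h alone, so its call was set by the filter and is no support. Mgst2, a microsomal transferase, differed by -0.16, 2.04 and 2.38 (limma, adjusted p = 2.82e-06). Lcn2 had 9.20, 9.32 and 7.95 with heme and 9.20, 6.70 and 5.46 with vehicle (limma, adjusted p = 3.75e-07). Its heme level was thus slightly higher at 24 h than at 6 h and lower at 72 h, while its vehicle level was lower at both later times. The scavenger receptor Marco differed by 0.92, 2.15 and 4.85 (limma, adjusted p = 4.56e-04) and the sphingosine receptor S1pr1 by -0.70, 1.24 and 2.70 (limma, adjusted p = 3.09e-06). Ly6i, a surface antigen, differed by 0.18, 2.92 and 2.22 (limma, adjusted p = 3.09e-06). Cxcl5 differed by 1.15 and 3.62 at 24 and 72 h, but it was kept through its heme level at 72 h alone (6.67), so its call was set by the filter and is no support.

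Of the 15 lowest genes at 6 h, 5 passed with a smaller (here more negative) 6 h difference, against 0.53% of all genes with a smaller one. The 15 were picked for a low 6 h difference, so such a call is favoured by that choice. Mcm6 differed by -1.64, 0.11 and 0.36 (limma, adjusted p = 1.41e-04), Tfrc by -1.51, -0.02 and -0.05 (limma, adjusted p = 0.00433) and Cdkn2c by -1.56, -0.25 and -0.08 (limma, adjusted p = 0.00852). Tmem37 (limma, adjusted p = 0.0118) and Tcp11l2 (limma, adjusted p = 0.029) were the others. Vehicle levels of Tfrc were 7.56, 6.89 and 6.72 at 6, 24 and 72 h, and its heme levels 6.05, 6.87 and 6.67. Mcm6 was the 1 replication gene of 29 that passed, and of 30 mitosis genes 0 did. Prg2 of eosinophils passed as well (-1.15, 0.78 and 0.44; limma, adjusted p = 4.61e-04), while the markers Epx and Siglecf did not. Of the 9 stromal markers 2 passed: the smooth muscle actin gene Acta2 differed by -0.60, 1.06 and 1.62 (limma, adjusted p = 1.14e-04) and the matrix protein gene Sparc by -0.71, 0.07 and 1.14 (limma, adjusted p = 0.0351). The phosphatase Dusp6 (-0.68, 0.55 and 0.65; limma, adjusted p = 0.0198) and the class II gene H2-Oa (excess -1.37; limma, adjusted p = 0.00963) passed as well.

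Of the 117 genes past this test, 15 passed in the deposited scale, after a second quantile normalization, after centring and after cyclic loess. These were Cxcl10, Ifit1, Ifit3, Klra17 and Retnla with a larger 6 h difference (Ifit1 being kept through 1 array alone). With a smaller one were Treml4, Mcm6, Mgst2, Ly6i, Lcn2, Gsta3 (kept through its later heme levels alone) and Ppbp. The others, named because the set is small, were the non-coding RNA Airn with a larger difference and the arginase Arg2 and haptoglobin gene Hp with a smaller one. Among genes of the NF-kB feedback list, 0 of 17 passed in either direction.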

How the data were processed

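The authors deposited log2 expression values, made by RMA per the submitters' processing notes, its version not given in the sources used here. Platform annotation pairs 21789 of 35556 probe sets with a single gene and 1621 with several, and does not list 12146; the first kind was used, and 21698 matched a current symbol. Where a gene had several (810 of the genes kept), the probe set brightest on average was kept. Array correlations were 0.975 to 0.986. The number of arrays limits precision: at 6 h there is 1 array a side and no test.

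The time test used limma 3.58.1 in R 4.3.3 (lmFit, eBayes) with time, treatment and treatment at 6 h. On simulated data with 11516 genes it recovered 34% of genes whose 6 h difference was changed by 1 and 100% at 2, 3 or 4 on the log2 scale, with 13 false calls, and called 0 genes without a change. The simulated data followed the fitted model, with a common heme effect at the later times. Measured later differences were unequal in genes such as Marco, so these rates need not hold for the arrays.

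Named genes were the 15 highest and 15 lowest at 6 h, the 8 highest and 8 lowest past the test, up to 4 members of each of 58 lists and 14 fixed by name, with predicted genes left out; exceptions are said in the text. The genes and lists were chosen with earlier results of these data known. Promoter sequences and coordinates are RefSeq's on GRCm38.p6, for genes with 1 promoter in the table. Alternatives were other normalizations, level filters, thresholds, the mean of probe sets, an offset, a variance trend and robust eBayes.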

Additional observations from a re-analysis of the deposited data

Results flagged for a closer look

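For 16 genes the effect of heme at 6 h differed from its effect at the later times by the limma test of that difference (adjusted p from 3.06e-10 to 0.00442). The 6 h difference exceeded the mean of the 24 and 72 h differences by 2.28 in Ifit1, 2.23 in Cxcl10, 2.08 in Il1a, 1.95 in Slamf7, 1.94 in Klra17, 1.91 in Retnla, 1.91 in Ifit3 and 1.89 in Cxcl9. It lay under that mean in Ppbp (-3.52), Gsta3 (-3.02), S1pr1 (-2.68), Marco (-2.58), Lcn2 (-2.56), Ly6i (-2.40), Mgst2 (-2.37) and Cxcl5 (-2.33). Of their 6 levels, 5 lie below the level filter in Ifit1, Cxcl9 and Cxcl5, which were kept through 1 array alone, so that their calls are no support. Of the others 4 levels are below it in Gsta3, 3 in Cxcl10, 2 in Retnla and 1 in Ppbp, and none of these 7 sizes is exact. Gsta3 was kept through its heme levels at 24 and 72 h alone, so its call is no support either. The calls hold in the deposited scale. Il1a, Slamf7, Cxcl9, S1pr1, Marco and Cxcl5 lost theirs after a second quantile normalization and after cyclic loess. With levels below the median of the table set to it, none of the 16 passed.

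Probe sets that the annotation does not list carried a signal of their own. Of 6176 that passed the level filter, 493 were 2-fold or more higher with heme at 6 h (7.98%) and 81 lower (1.31%), with a median difference of 0.15. Among 12712 probe sets of 1 gene that passed it, 116 were higher (0.913%) and the median was -0.09. At 24 h 90 of the unlisted probe sets were higher and 269 lower, and at 72 h 230 and 174. What these probe sets read is not known from the sources used here.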

How the results depend on the processing

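No paired analysis was possible because the labels give no replicate numbers and each treatment and time has 1 array; heme minus vehicle was taken within each time. At 1.5-fold, 387 genes were higher and 793 lower with heme at 6 h, and at 4-fold 23 and 1. Genes lower by 2-fold or more were 159 after centring each array on its median and 37 with an offset of 16. In the time test, genes with a larger and a smaller 6 h difference were 7 and 12 after a second quantile normalization, 6 and 9 after cyclic loess, 32 and 26 without a level filter, and 0 and 0 with levels below the median of the table set to it, a setting chosen after seeing the data (limma; 805 at an unadjusted p under 0.05). The offset left 37 with a larger difference, and centring gave 222 with a smaller one. Of antiviral genes, 1 was 2-fold higher with the filter at the 75th percentile; replication genes lower by 2-fold were 1 after quantile normalization, 1 after cyclic loess, 1 with the offset and 7 after centring. The cause was not tested. Of 1787 recomputed 6 h differences of 229 named genes, 1739 moved by less than the gene's moderated SD in limma, and 0 of those at 2-fold turned sign. Many of these values could not move. A change of the level filter leaves a difference as it was, as does the mean of probe sets where a gene has 1. Centring shifts every gene by the same small amount. Much of this count was thus fixed in advance and is no measure of robustness. Of 461 recomputed values of the time test for 39 named genes, 115 lost the call and 0 turned. Signal over background is not known for any probe set, so levels under 5.37 give bounds only.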

Other observations

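Of 1136 probe sets that name several genes and passed the level filter, 6 were 2-fold or more higher with heme at 6 h and 0 were lower.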
